A study of Mus musculus with 16 samples.

Results

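Otof, Wfs1, Calb1, Ccdc3, Pdyn and Tnfrsf8 are 6 of the 18424 genes measured by RNA sequencing in adult medial prefrontal cortex (mPFC), in mice with a mutated copy of Arid1b and in wild-type mice. They were selected on their measured values, because each was higher in heterozygous than in wild-type mice in these data, and because several of them mark neurons of the upper cortical layers. Their genotype differences are therefore given as a description, without a test. What could be tested independently of that choice was the fluoxetine difference over both genotypes and the relation, within groups, of these genes to olfactory bulb RNA in the samples. All 6 genes passed the filter on low values, a normalized read count of at least 10 in at least 4 mice, in every comparison.

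The 16 mice were males of strain C57BL/6N, sampled at postnatal day 120 (P120). Heterozygous (HT) mice carried 1 Arid1b allele with a protein-truncating mutation in exon 5, made in the germline by genome editing and therefore present in all cell types, and wild-type (WT) mice carried none. Arid1b encodes a DNA-binding subunit of SWI/SNF, a complex that remodels chromatin. All pups, vehicle (Veh) controls included, were nursed from P3 to P21 by dams drinking 0.2% saccharin. For the Flx groups this water also held 0.1 mg per ml of fluoxetine (Flx), which inhibits serotonin reuptake. Plain water followed weaning, so that the adults of the resulting groups (HT-Flx, HT-Veh, WT-Flx and WT-Veh, with 4 mice each) had been without the drug since P21. The labels do not give litters, so litter and group cannot be told apart if they coincide.

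Neurons of the upper cortical layers are the main source of connections between cortical areas and between the hemispheres, whereas deep-layer neurons project largely out of the cortex. Calb1, Wfs1 and Otof are widely used as markers of superficial cortical neurons, although none is restricted to them: Calb1 is also made by interneurons and striatal neurons, and Pdyn by striatal neurons. The 6 genes encode proteins of unlike function, namely a calcium buffer, a calcium sensor for vesicle fusion, a membrane protein of the endoplasmic reticulum, a secreted protein, an opioid peptide precursor and a cytokine receptor. In bulk tissue, more cells of a type and more RNA per cell cannot be told apart.

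Values are normalized read counts, and the sequencing depth behind them is unknown. Their totals ran from 92.8% to 104% of the mean over the mice. Arid1b had means of 1795 ± 160 (SD, n = 4) in HT-Veh against 2368 ± 432 in WT-Veh, and of 1636 ± 61.0 in HT-Flx against 2159 ± 233 in WT-Flx. Over both treatments Arid1b was lower in HT by 0.39 on the log2 scale (limma, SE 0.080, adjusted p = 0.0969), which missed the threshold of 0.05, and the WT-Veh mouse with the lowest value, 1787, lay within the HT-Veh range. Markers of cortical projection neurons were present throughout, with Cux2 between 2701 and 6507 and Tbr1 between 3188 and 5737 in single mice. Markers of the olfactory bulb, a neighbouring structure, were far less even. A bulb score, the mean log2(value + 1) of 8 bulb markers, lay between 4.18 and 5.22 in 11 mice and between 7.27 and 9.48 in the other 5, which are called bulb-rich (score more than 0.5 above the median). The bulb-rich mice were 3 in WT-Flx (replicates 1, 2 and 4), 1 in HT-Veh (replicate 4) and 1 in WT-Veh (replicate 1). Eomes, a transcription factor of bulb projection neurons, reached 899 in WT-Veh replicate 1 and was listed at 0 in HT-Flx replicate 3. No HT-Flx mouse was bulb-rich, so bulb RNA was unevenly spread over the groups. The summed striatal markers ranged from 7092 to 24071 over single mice, highest in HT-Veh replicate 4.

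**Figure D1:**
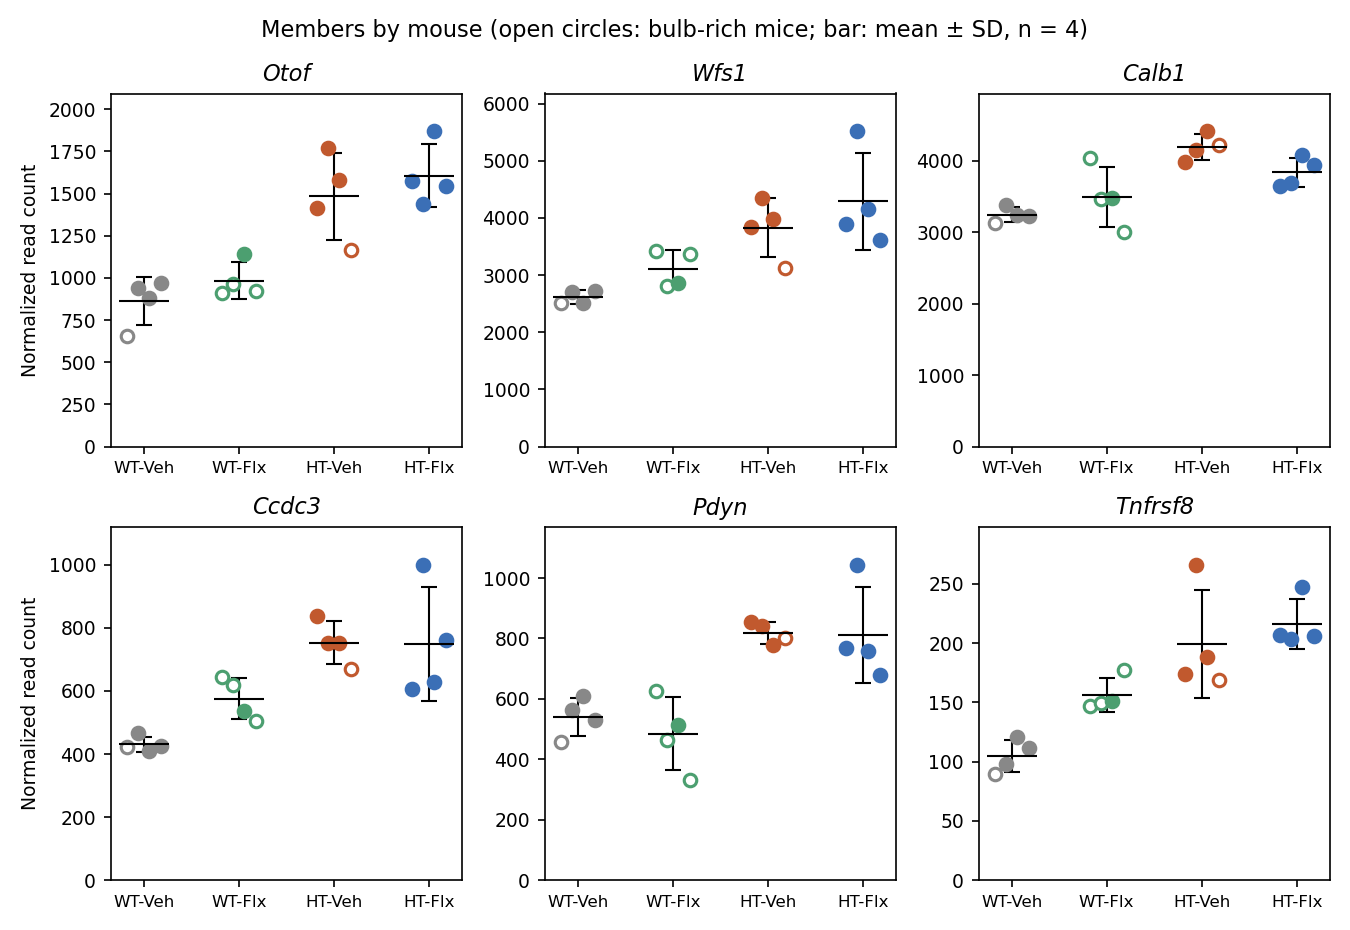
Normalized read count (y axis, linear, from 0) of each gene in each of the 4 groups (x axis); circles are mice, open where bulb-rich, and bars are the mean ± SD of 4 mice. Every HT-Veh mouse lies above every WT-Veh mouse for all 6 genes, and for Otof and Pdyn all 8 HT mice lie above all 8 WT mice.

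Otof (ENSMUSG00000062372, chromosome 5, 30367062 to 30461932, minus strand, GRCm38, protein-coding) encodes otoferlin, a ferlin that acts as a calcium sensor for vesicle fusion at the synapses of inner hair cells. Its normalized read counts in replicates 1 to 4 were 655, 938, 881 and 970 in WT-Veh. In WT-Flx they were 909, 962, 1142 and 925. HT-Veh mice had 1416, 1769, 1582 and 1163, and HT-Flx mice had 1576, 1438, 1869 and 1543. All 8 HT mice exceeded all 8 WT mice, by a narrow margin: the lowest HT value, 1163, came from the bulb-rich HT-Veh mouse, and the highest WT value was 1142. Group means rose from WT-Veh through WT-Flx and HT-Veh to HT-Flx, and within each genotype the neighbours in that order overlapped. HT-Veh was 1.72-fold WT-Veh and HT-Flx was 1.63-fold WT-Flx.

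Calb1 (ENSMUSG00000028222, chromosome 4, 15881264 to 15908064, plus strand) encodes calbindin, a cytosolic protein that buffers calcium. Its values were 3128, 3381, 3235 and 3223 in WT-Veh. HT-Veh mice had 3978, 4149, 4409 and 4221, without overlap with WT-Veh. In WT-Flx the values were 4035, 3466, 3475 and 3008, and in HT-Flx 3640, 3690, 4075 and 3941. Calb1 was the member with the smallest genotype difference, 1.29-fold in vehicle mice and 1.10-fold in fluoxetine mice, and in the latter the groups overlapped. Only 1 of the HT-Flx mice exceeded all WT-Flx mice. The group means rose from WT-Veh through WT-Flx and HT-Flx to HT-Veh, with every pair of neighbours overlapping.

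Wfs1 (ENSMUSG00000039474, chromosome 5, 36966104 to 36989205, minus strand) encodes wolframin, a membrane protein of the endoplasmic reticulum whose loss causes Wolfram syndrome. Values were 2511, 2711, 2506 and 2721 in WT-Veh, a narrow range. WT-Flx mice had 3417, 2804, 2861 and 3373, all above WT-Veh. HT-Veh mice had 3845, 4350, 3985 and 3123, and HT-Flx mice 3889, 5514, 4153 and 3606. The bulb-rich HT-Veh mouse, at 3123, fell among the WT-Flx values, and HT-Flx replicate 2 stood highest of all mice. HT-Veh was 1.46-fold WT-Veh, and HT-Flx was 1.38-fold WT-Flx, in both cases without overlap. Per kilobase of exon, Wfs1 was the most abundant of the 6 genes, with a mean level over the 16 mice of 914, followed by Calb1 at 762, Ccdc3 at 235, Pdyn at 230, Otof at 156 and Tnfrsf8 at 48.9.

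Ccdc3 (ENSMUSG00000026676, chromosome 2, 5137776 to 5230878, plus strand) encodes a secreted coiled-coil protein. The 250 bases before its annotated start, and those of the 2 members shown after it, are given because these genes were picked for moving the same way while lying on different chromosomes or far apart. The sequences are those of RefSeq for GRCm38.p6, with the strand of the gene read 5′ to 3′, and capitals mark GC boxes, CCAAT boxes or AP-1 sites on either strand. The first is chr2:5137526-5137775, plus strand.
Ccdc3: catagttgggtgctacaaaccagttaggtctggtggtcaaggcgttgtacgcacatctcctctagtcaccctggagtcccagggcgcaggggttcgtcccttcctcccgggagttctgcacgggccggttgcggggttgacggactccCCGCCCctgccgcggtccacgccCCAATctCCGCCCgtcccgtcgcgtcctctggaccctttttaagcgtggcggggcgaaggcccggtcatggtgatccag
This window held 2 GC boxes and 1 CCAAT box. Over the full 300 bases of the RefSeq window, 50 bases after the start included, it had 28 CG dinucleotides, against a median of 7 over all 32851 windows. Ccdc3 had normalized read counts of 424, 466, 409 and 425 in WT-Veh and of 644, 617, 537 and 505 in WT-Flx. HT-Veh mice had 837, 752, 752 and 671, and HT-Flx mice had 606, 1000, 629 and 761. The WT-Veh mice were the lowest 4 of all and overlapped with no other group. The HT-Flx values spread widely (749 ± 181, SD, n = 4), with replicate 2 far above the others, and 2 HT-Flx mice lay within the WT-Flx range. HT-Veh was 1.75-fold WT-Veh, whereas HT-Flx was 1.30-fold WT-Flx. Without HT-Flx replicate 2 the log2 difference between HT-Flx and WT-Flx went from 0.36 to 0.21.

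Pdyn (ENSMUSG00000027400, chromosome 2, 129686565 to 129699844, minus strand) encodes prodynorphin, the precursor of the dynorphin peptides that act on kappa opioid receptors. RefSeq gives 2 starts, and the window of the upstream one is shown, chr2:129699939-129700188, minus strand.
Pdyn: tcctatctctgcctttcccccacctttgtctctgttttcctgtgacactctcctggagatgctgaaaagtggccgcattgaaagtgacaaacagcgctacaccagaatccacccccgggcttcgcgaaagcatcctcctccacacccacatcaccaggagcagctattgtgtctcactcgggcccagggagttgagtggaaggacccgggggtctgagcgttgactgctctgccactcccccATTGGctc
A CCAAT box on the other strand, beginning 8 bases before the start, was the single motif in this window, and the second Pdyn window, which lies inside the gene, also held 1 CCAAT box. Pdyn had 459, 563, 609 and 529 normalized read counts in WT-Veh. In WT-Flx it had 626, 466, 515 and 333. HT-Veh mice had 856, 840, 778 and 801, and HT-Flx mice 769, 1044, 758 and 678. All 8 HT mice exceeded all 8 WT mice, the highest of which was WT-Flx replicate 1. Pdyn was also the only one of the 6 genes with a lower mean in WT-Flx (485 ± 122) than in WT-Veh (540 ± 63.4), although the ranges overlapped. HT-Veh was 1.52-fold WT-Veh and HT-Flx 1.68-fold WT-Flx. Striatal neurons also make Pdyn, and their markers varied between samples. The HT-Veh mouse with the most striatal marker RNA, replicate 4, had a Pdyn value, 801, that lay within the range of the other 3.

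Tnfrsf8 (ENSMUSG00000028602, chromosome 4, 145267137 to 145315164, minus strand) encodes CD30, a receptor of the tumour necrosis factor family that signals through TRAF proteins to NF-κB and is best known from lymphocytes. Its upstream window is chr4:145315165-145315414, minus strand.
Tnfrsf8: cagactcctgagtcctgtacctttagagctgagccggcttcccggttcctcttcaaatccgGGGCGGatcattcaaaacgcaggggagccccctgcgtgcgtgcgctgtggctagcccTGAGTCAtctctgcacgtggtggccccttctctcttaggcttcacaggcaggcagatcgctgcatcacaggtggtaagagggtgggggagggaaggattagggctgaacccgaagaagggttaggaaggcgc
The window held 1 GC box and 1 AP-1 site, the latter beginning 132 bases before the start. Tnfrsf8 was the least abundant member, with 89.8, 98.2, 120 and 111 normalized read counts in WT-Veh. WT-Flx mice had 147, 149, 151 and 177. HT-Veh mice had 174, 266, 188 and 169, and HT-Flx mice 207, 203, 247 and 206. WT-Veh lay below every other group without overlap, and HT-Flx lay above WT-Flx without overlap, while WT-Flx and HT-Veh overlapped. The genotype difference was the largest among the 6 in vehicle mice, 1.90-fold, and 1.38-fold in fluoxetine mice.

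A total of 6 motifs were searched on both strands of all 32851 RefSeq windows. The GC box, GGGCGG, was found in 35.7% of them. The CCAAT box, the letters of its name, was found in 37.4%. The AP-1 site, TGANTCA, reads the same on both strands but for its middle base and was found in 7.81%. The CRE, TGACGTCA, was found in 1.79%. The TATA box, TATAAA, was found in 13.6%, and the MEF2 site in 3.19%. The Wfs1 window (chr5:36988933-36989232, minus strand), which lies mostly inside the gene model and is not shown, held 4 GC boxes and 1 CCAAT box. The CCAAT box was present in 3 of the 4 matched members (Ccdc3, Pdyn and Wfs1), as was the GC box (Ccdc3, Tnfrsf8 and Wfs1), and both are common among promoters at large. None of the windows of the 4 matched members held the letters of the CRE, the TATA box or the MEF2 site. Otof and Calb1 had no entry. None of the 6 genes is on chromosome 17, where Arid1b lies.

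On the log2(value + 1) scale, the differences between HT-Veh and WT-Veh were 0.78 for Otof (SE 0.15), 0.54 for Wfs1 (SE 0.097), 0.37 for Calb1 (SE 0.059), 0.80 for Ccdc3 (SE 0.090), 0.61 for Pdyn (SE 0.096) and 0.90 for Tnfrsf8 (SE 0.17). Their median was 0.69, against 0.0062 over all 16832 genes tested. The groups did not overlap for any of the 6, as the choice of members favours, and over all genes 2.06% had every HT-Veh mouse above every WT-Veh mouse. In the same contrast 0.0178% of all genes passed an adjusted p of 0.05. Between HT-Flx and WT-Flx the differences were 0.71 for Otof, 0.45 for Wfs1, 0.14 for Calb1, 0.36 for Ccdc3, 0.76 for Pdyn and 0.46 for Tnfrsf8, with a median of 0.46. The Calb1 value was 0.071 without WT-Flx replicate 4. Here 4 of the 6 did not overlap, with Calb1 and Ccdc3 the exceptions, against 2.70% of all genes, and 0.0417% of all genes passed the threshold. Over both treatments the differences ran from 0.25 (Calb1) to 0.74 (Otof), with a median of 0.63. Otof and Pdyn were among the 15 genes, 0.0854% of those tested, in which all 8 HT mice exceeded all 8 WT mice, and 0.0398% of genes passed the threshold. These values chose the members, and nothing is read from the counts.

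**Figure D2:**
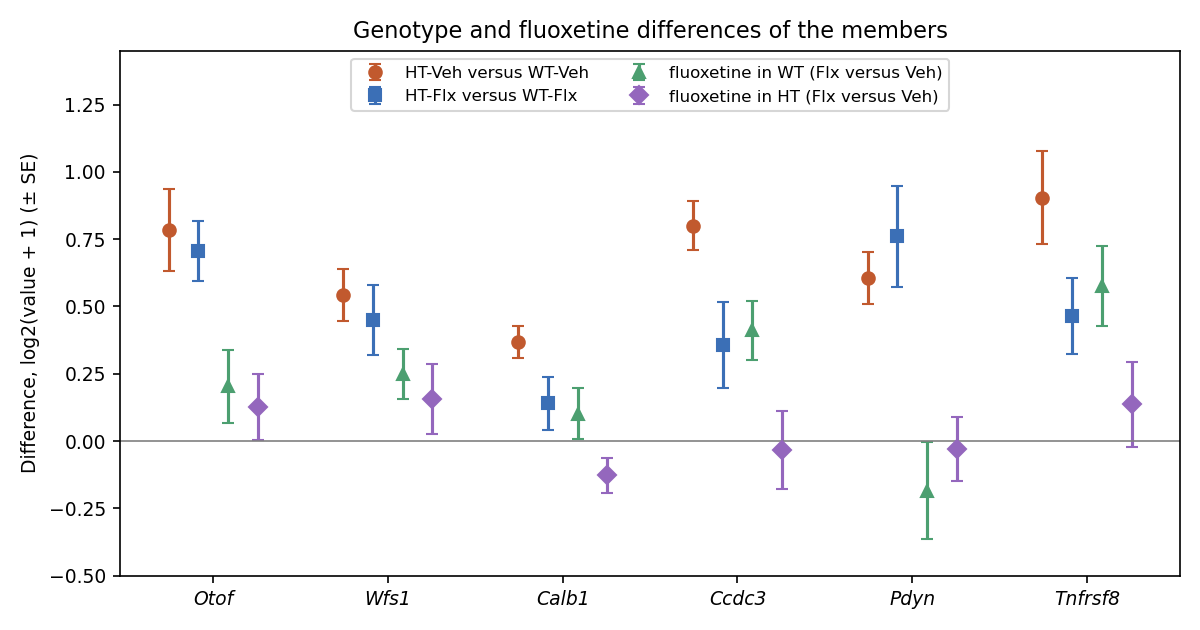
Differences on the log2(value + 1) scale (y axis, ± SE from limma, 4 mice per group) for each gene (x axis): both genotype comparisons, and Flx minus Veh within each genotype. The genotype differences run from 0.14 to 0.90, and fluoxetine in HT lies between -0.13 and 0.16 for all 6 genes.

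Whether early fluoxetine left a lasting trace in these genes was asked first over both genotypes, a contrast that is balanced against the one that chose them. None of the 6 genes passed, and 0.00% of all 17567 genes did. The log2 differences between Flx and Veh were 0.36 for Tnfrsf8 (SE 0.12, unadjusted p = 0.0066, adjusted p = 1.0), 0.20 for Wfs1 (SE 0.084, unadjusted p = 0.027), 0.19 for Ccdc3 (SE 0.11), 0.16 for Otof (SE 0.095), -0.013 for Calb1 (SE 0.061) and -0.11 for Pdyn (SE 0.11). An unadjusted p under 0.05 was thus found for 2 of the 6, against 3.11% of all genes. The median of the 6 was 0.18, against 0.0019 over all genes. Without the bulb-rich mice, which leaves 1 WT-Flx mouse, the differences were 0.19 for Tnfrsf8, 0.078 for Wfs1, 0.034 for Ccdc3, 0.10 for Otof, -0.060 for Calb1 and -0.070 for Pdyn. With the bulb score as a covariate, over all mice, the differences were 0.36, 0.21, 0.18, 0.20, -0.012 and -0.082 in the same order. For Tnfrsf8, Wfs1 and Ccdc3 these were close to the differences without the covariate. Why leaving out the bulb-rich mice gave lower values was not tested.

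Fluoxetine within 1 genotype shares its vehicle mice with the genotype comparison that favoured these genes, and is not independent of that choice. In HT mice alone, the 6 genes differed between fluoxetine and vehicle by less than 0.2 on the log2 scale in either direction. None of them passed, as was the case for 0.00% of all genes, none had an unadjusted p under 0.05, and none was without overlap, against 0.934% of all genes in which every HT-Flx mouse exceeded every HT-Veh mouse. The differences were 0.16 for Wfs1 (SE 0.13), 0.14 for Tnfrsf8 (SE 0.16), 0.13 for Otof (SE 0.12), -0.030 for Pdyn (SE 0.12), -0.033 for Ccdc3 (SE 0.14) and -0.13 for Calb1 (SE 0.064). With the bulb-rich HT-Veh mouse left out, the Otof difference was 0.015, and without HT-Flx replicate 2 that of Wfs1 was 0.029. These standard errors leave room for changes of the size of the smaller genotype differences, such as that of Calb1, so equal levels are not shown. In WT mice the differences were 0.58 for Tnfrsf8 (SE 0.15, unadjusted p = 0.0030), 0.41 for Ccdc3 (SE 0.11, unadjusted p = 0.0035), 0.25 for Wfs1 (SE 0.092, unadjusted p = 0.022), 0.20 for Otof (SE 0.14), 0.10 for Calb1 (SE 0.095) and -0.18 for Pdyn (SE 0.18). No gene passed (0.00% of all genes, adjusted p = 1.0 for each of the 6). For Tnfrsf8, Ccdc3 and Wfs1 every WT-Flx mouse exceeded every WT-Veh mouse, against 1.81% of all genes. Low values in the 4 WT-Veh mice favoured the choice of these genes and raise these differences. The Otof difference fell to 0.077 without WT-Veh replicate 1, the bulb-rich mouse of that group. With the bulb score as a covariate it was 0.35.

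The interaction, the fluoxetine difference in HT minus that in WT, was negative for 5 of the 6 genes, with Pdyn the exception at 0.15 (SE 0.23). It contains the difference between HT-Veh and WT-Veh with a negative sign, so the choice of genes high in HT-Veh and low in WT-Veh favours negative values, and its direction and unadjusted p-values are given as description. It was -0.44 for both Ccdc3 (SE 0.19, unadjusted p = 0.032) and Tnfrsf8 (SE 0.21, unadjusted p = 0.056), -0.23 for Calb1 (SE 0.11, unadjusted p = 0.057), -0.092 for Wfs1 and -0.077 for Otof. None passed after adjustment (adjusted p = 0.998 for each), as was so for 0.00% of all genes. An unadjusted p under 0.05 was found for 1 of the 6, against 4.29% of all genes. A smaller genotype difference of Ccdc3, Tnfrsf8 and Calb1 among fluoxetine than among vehicle mice was therefore not established.

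Because bulb RNA was unevenly spread, the slope of each gene on the bulb score was fitted within groups over the 16 mice. Otof fell by 0.11 on the log2 scale for each unit of the score (limma, SE 0.021, adjusted p = 0.00184), the single member to pass, in a fit in which 13.1% of all genes passed. All 6 slopes were negative: -0.073 for Pdyn (adjusted p = 0.20), -0.049 for Tnfrsf8, -0.025 for Wfs1, -0.021 for Calb1 and -0.015 for Ccdc3. WT-Veh replicate 1 had the highest score and the lowest Otof value. Without that mouse the Otof slope was as steep, -0.13, but its adjusted p was 0.0803 and no member passed, in a fit in which 146 genes passed in place of 2295. Eomes itself rose by 1.59 per unit, as a component of the score.

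**Figure D3:**
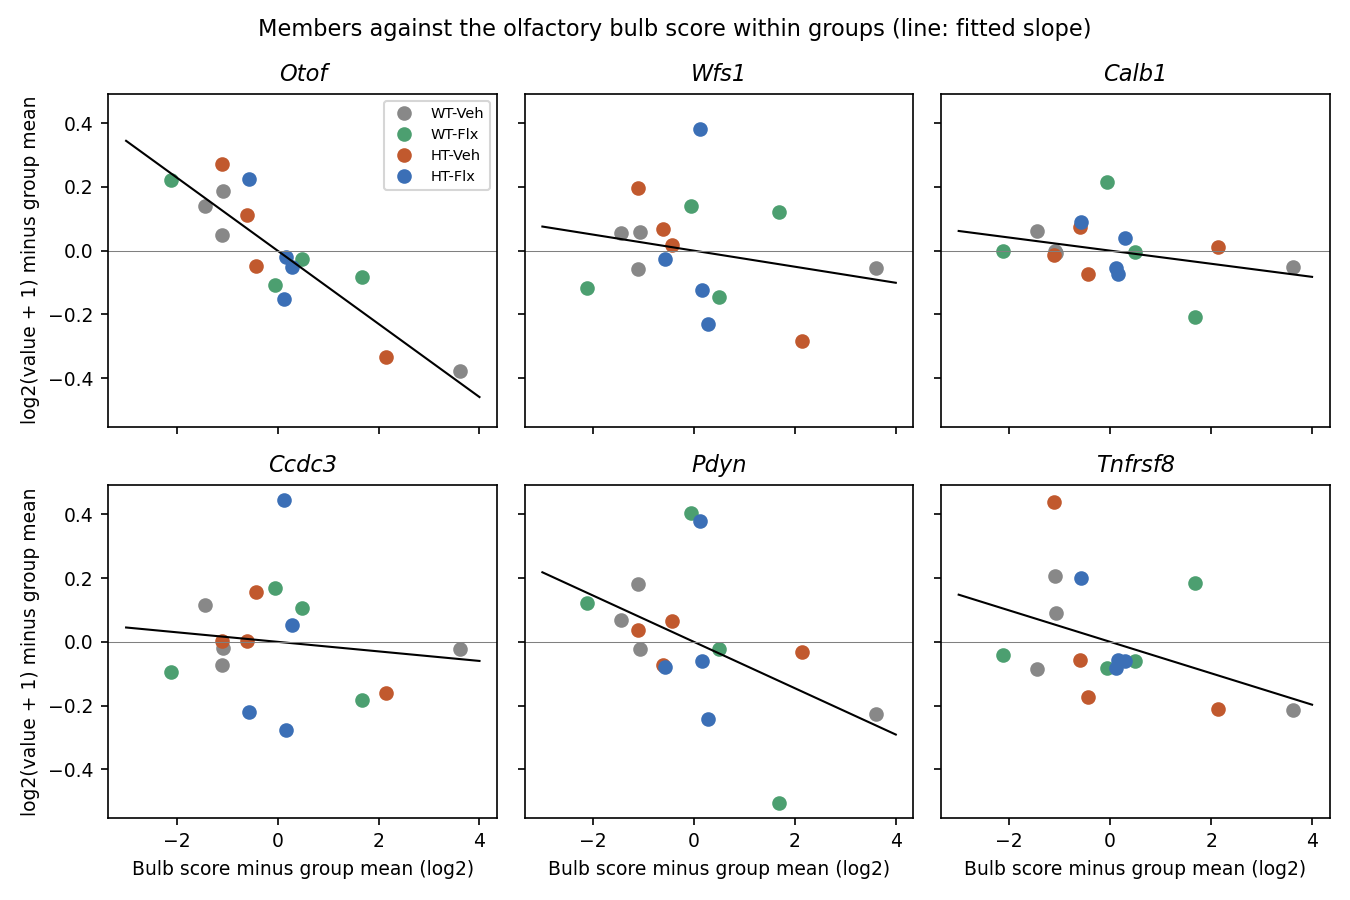
Each gene's log2(value + 1) (y axis) against the bulb score (x axis, log2), both as deviations from the group mean, with 1 point per mouse and the fitted slope as a line. Otof falls along its line from left to right, with WT-Veh replicate 1 at the far right, and the other 5 genes scatter more widely about shallower lines.

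The genotype difference of the members was of similar size among bulb-poor mice. With the 5 bulb-rich mice left out, 7 HT mice (3 HT-Veh and 4 HT-Flx) and 4 WT mice (3 WT-Veh and 1 WT-Flx) remained. The ratios between them rest on the values that chose the members and are a description. They are ratios of plain means without a treatment term, so the uneven split of fluoxetine mice enters them. HT was then 1.63-fold WT for Otof, 1.55-fold for Wfs1, 1.20-fold for Calb1, 1.66-fold for Ccdc3, 1.47-fold for Pdyn and 1.77-fold for Tnfrsf8. In vehicle mice alone, 3 against 3, the ratios were between 1.27 (Calb1) and 1.90 (Tnfrsf8). With the bulb score as a covariate the median log2 difference over both treatments was 0.59. Between HT-Flx and WT-Flx, where 3 of the WT mice and none of the HT mice were bulb-rich, the covariate moved the members in either direction. The difference went from 0.71 to 0.45 for Otof, from 0.76 to 0.39 for Pdyn and from 0.14 to 0.0039 for Calb1, whereas it went from 0.45 to 0.56 for Wfs1, from 0.46 to 0.54 for Tnfrsf8 and from 0.36 to 0.38 for Ccdc3. The single bulb-poor WT-Flx mouse, replicate 3, had 1142 of Otof, 515 of Pdyn and 3475 of Calb1, each below every HT-Flx mouse.

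From mouse to mouse, pairs of members varied in either direction. Within groups, over 10 bulb-poor mice (3 WT-Veh, 3 HT-Veh and 4 HT-Flx), the 15 pairwise correlations of their log2 values ran from -0.60 to 0.82, with a median of -0.028, and 8 were negative. None passed an exact permutation test within groups after adjustment over the 15 pairs (smallest adjusted p = 0.51), nor did any before it. The highest, Wfs1 with Pdyn (Pearson's r = 0.82, exact permutation p = 0.10; Spearman's rho = 0.32, exact permutation p = 0.44), went to -0.12 without the 2 mice farthest from the Wfs1 median. Otof with Tnfrsf8 (r = 0.72, exact permutation p = 0.051; rho = 0.59, exact permutation p = 0.15) went to 0.27. The largest negative value, Otof with Ccdc3 (r = -0.60, exact permutation p = 0.17; rho = -0.39, exact permutation p = 0.33), remained at -0.55. HT-Flx replicate 2 was the highest of its group in Wfs1, Ccdc3 and Pdyn and the lowest in Otof and Tnfrsf8.

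Over all 16 mice, genes whose deviations from the group means were most like the mean standardised deviation of the members, among 13820 genes with a mean of at least 50, included Nptxr (r = 0.92), Mettl27 (r = 0.90), Kcnj11 (r = 0.89) and Mpp3 (r = 0.85). The points share their libraries and their bulb content, and these correlations are descriptive. The members themselves had r between 0.43 (Tnfrsf8) and 0.72 (Pdyn) with that mean. Each member is part of the mean, which raises its r, so these values do not show that the members vary together. In the genotype ratio, which did not enter the ranking, these 4 genes lay below every member, Kcnj11 and Nptxr not far below Calb1. HT over WT was 1.10 for Nptxr, 1.00 for Mettl27, 1.14 for Kcnj11 and 1.05 for Mpp3. The members, chosen for this ratio, ran from 1.19 (Calb1) to 1.67 (Otof).

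Other genes of the upper cortical layers were examined to see how far the difference extended beyond the chosen genes. Of 24 such genes, none passed in any genotype comparison (limma), and over both treatments 8 had an unadjusted p under 0.05, against 11.9% of all genes. In that comparison 18 were higher in HT and 6 lower, with a median difference of 0.11, against 0.63 for the members and 0.0044 over all genes. The smallest unadjusted p among those higher belonged to Rasgrf2 (0.48, SE 0.12, adjusted p = 0.19) and Adamts2 (0.27, adjusted p = 0.38), and among those lower to Scnn1a (-0.60, SE 0.21, adjusted p = 0.33), a layer-specific sodium channel subunit, and Lamp5 (-0.17). The list moved with bulb RNA as well. Along the bulb score 8 of the 24 fell, among them Cux2 (-0.16), Rasgrf2 (-0.13), Nectin3, Unc5d, Pou3f2, Stard8 and Enpp2, and Mdga1 rose (0.32), against 13.1% of all genes. With the bulb score as a covariate, the median of the 24 over both treatments was 0.022, and without the bulb-rich mice it was 0.017, with 13 higher and 11 lower, whereas the members' medians were 0.59 and 0.63. Of the 20 deep-layer genes none passed, 2 had an unadjusted p under 0.05, 7 were higher and 13 lower, and their median was -0.073, with Pcp4 (-0.33, adjusted p = 0.32), a calmodulin-binding protein, having the smallest unadjusted p.

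**Figure D4:**
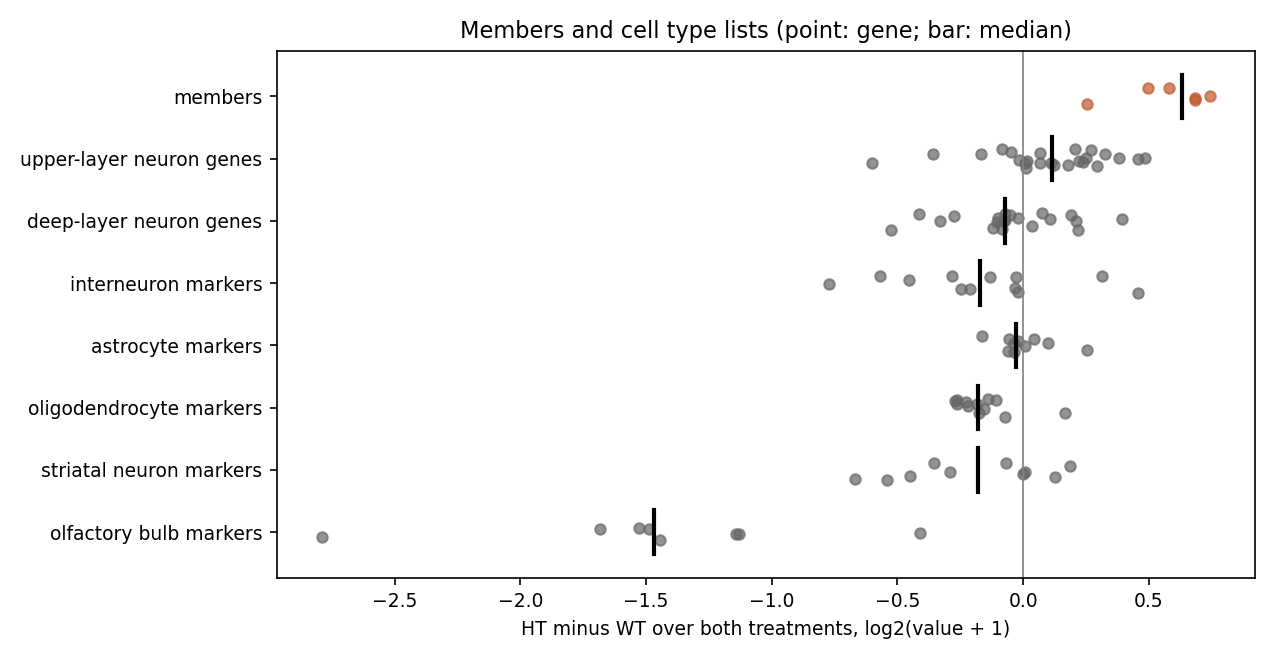
Differences between HT and WT over both treatments on the log2(value + 1) scale (x axis) for the members and 7 cell type lists (y axis); points are genes and bars are medians. The members, which were chosen for this difference, lie between 0.25 and 0.74, the upper-layer genes are spread around 0.11 and the bulb markers lie below 0.

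No marker of another cell type passed in the genotype comparison over both treatments. An unadjusted p under 0.05 was found for 6 interneuron, 3 oligodendrocyte, 3 bulb and 1 astrocyte marker, and for 0 striatal, vascular or meningeal markers. The share over all genes was 11.9%. The medians were -1.47 for the 8 bulb markers, all of them lower in HT, -0.18 for 10 striatal markers, -0.17 for 12 interneuron markers, -0.18 for 12 oligodendrocyte markers (11 lower), -0.028 for 10 astrocyte markers and 0.052 for 12 vascular and meningeal markers. Calb1 is also made by interneurons and Pdyn by striatal neurons. Over both treatments, the interneuron median was -0.036 with the bulb score as a covariate and -0.022 without the bulb-rich mice. The oligodendrocyte median was -0.17 and -0.26 in these 2 settings. Among the 12 interneuron markers, 5 were higher and 7 lower in HT-Veh than in WT-Veh, and without the bulb-rich mice 6 were higher, 1 of which passed, and 6 lower. With the bulb score as a covariate 5 were higher and 7 lower, and here 1 of the lower ones passed. Over all genes, 11 of 16508 passed without the bulb-rich mice and 19 of 16832 with the covariate. Among the 10 striatal markers, 5 were higher and 5 lower in HT-Veh than in WT-Veh (median 0.12), and without the bulb-rich mice, HT-Veh replicate 4 with its high striatal markers among them, all 10 were lower (median -0.50). Interneuron genes with the smallest unadjusted p were Nos1 (0.46, adjusted p = 0.23) and Lhx6 (0.31) among those higher and Npy (-0.28) and Cort (-0.57) among those lower. The part of bulb, striatal and glial RNA in the members' differences was not tested beyond the values given.

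Genes that work with each member, or resemble it in function, were compared over both treatments. Among 11 other genes of the opioid system none passed, and 7 were higher and 4 lower (median 0.10). Their unadjusted p was under 0.05 for 2, against 11.9% of all genes. The delta receptor Oprd1 (0.71, SE 0.20, adjusted p = 0.27) and the mu receptor Oprm1 (0.67, SE 0.33) had the smallest unadjusted p among those higher, and the precursor genes Pnoc (-0.41, adjusted p = 0.30) and Penk (-0.45) among those lower. Penk rose along the bulb score (limma, slope 0.27, adjusted p = 0.026). In that fit 2 of the 11 rose and 1 fell past the threshold, against 13.1% of all genes. Oprk1, the kappa receptor on which dynorphins act, had means of 353 in HT-Veh against 218 in WT-Veh, and of 274 in HT-Flx against 308 in WT-Flx. Its groups overlapped in both comparisons, and it passed in neither (limma, adjusted p = 0.92 and 0.75). Nor did it pass in the interaction (limma, adjusted p = 0.998). Of 13 calcium buffers and sensors, which share the role of Calb1, none passed, and 6 were higher and 7 lower. Their unadjusted p was under 0.05 for 6, against 11.9% of all genes. Along the bulb score 3 of the 13 rose and 3 fell past the threshold, against 13.1% of all genes. With the bulb score as a covariate the genotype median went from -0.019 to 0.071, with 8 higher and 5 lower. Hpcal4 (0.27, SE 0.061, adjusted p = 0.16), a neuronal calcium sensor, was higher in all 8 HT than in all 8 WT mice, as were 0.0854% of all genes, and Ncs1 (0.22, adjusted p = 0.24), its relative, followed. Calm3 (-0.15) and Calm2 (-0.16), both encoding calmodulin, had the smallest unadjusted p among those lower.

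Of 11 tested ferlins, synaptotagmins and Doc2 proteins, the family of calcium sensors around Otof, 6 were higher and 5 lower (median 0.055), led by Syt7 (0.17, adjusted p = 0.47) and Syt4 (0.081), with Syt6 (-0.41) and Syt3 (-0.070) at the other end. Syt6 rose along the bulb score (limma, slope 0.40, adjusted p = 5.9e-05). In that fit 2 of the 11 rose and 2 fell past the threshold, against 13.1% of all genes. Of 14 genes of the unfolded protein response and the Wolfram pathway around Wfs1, 7 were higher and 7 lower, with a median of -0.0040. They included Atf6 (0.18, adjusted p = 0.49) and Ern1 (0.13), both stress sensors of the endoplasmic reticulum, and Atf4 (-0.12) and Dnajb9 (-0.099), a transcription factor and a chaperone of that response. Of 9 genes that relay signals from CD30, Traf3 (0.21, adjusted p = 0.51) and Relb (0.21) were the leading ones among 6 that were higher, and Rela (-0.21, adjusted p = 0.41) and Traf5 (-0.25) among 3 that were lower. None of the genes in these 3 lists passed in the genotype comparison over both treatments. Rela was the 1 gene with an unadjusted p under 0.05 in it, against 11.9% of all genes.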

How the data were processed

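RNA was measured in the mPFC of 16 mice, 1 sample per mouse. Libraries were prepared by the authors from poly-A RNA with a stranded kit and sequenced as paired ends. The authors estimated transcript abundance with Salmon 1.1.0 on GRCm38 with GC bias correction and normalized gene counts in DESeq2 1.30.1 (submitters' processing notes). The deposited signal is thus a normalized read count per gene, not a whole count. Depth cannot be recovered, and no counting interval is given. Of the 18424 genes, 18411 had a symbol for their Ensembl identifier, and positions come from GENCODE for GRCm38.

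Each comparison was fitted with limma 3.58.1 in R 4.3.3 (lmFit, eBayes with trend) on log2(value + 1), over genes with at least 10 in at least 4 samples of the fit. P-values were two-sided and adjusted by the Benjamini-Hochberg method over all genes tested (threshold 0.05). A log2 difference on this scale understates changes of low genes. Single comparisons used the mice of both groups, and the other fits used all 16. The fits were tested on simulated data. Named genes were the 6 members, Arid1b, bulb markers, and of each list the genes that passed or up to 2 per direction with the smallest unadjusted p, plus defining markers, and the genes most like the members (a few such genes are left unreported here); other named values (Oprk1) were chosen after they were seen. The members and lists were chosen with earlier results of these data known. Alternatives were pseudocounts of 0.1 and 8, no filter, a mean of at least 100, upper quartile and quantile normalization, quality weights, all groups in the fit, a replicate block, the bulb score as a covariate, Eomes in its place, and leaving out bulb-rich mice or each mouse.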

Additional observations from a re-analysis of the deposited data

Results flagged for a closer look

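Among 36 groups of 4 mice looked at (the 6 members, Arid1b, Eomes and the bulb score in each group), 6 held a mouse whose gap to the nearest other took up most of the group's range. The limit is one that chance passes in about 1 in 20 groups. Eomes is part of the bulb score, so the groups are not independent, and the 6 are not read as an excess. For Tnfrsf8 these were WT-Flx replicate 4, the highest of its group at 177, and HT-Flx replicate 3, the highest at 247. The other members had none, so HT-Flx replicate 2, which stood high in Wfs1, Ccdc3 and Pdyn, was within the limit. Arid1b was lowest in HT-Flx replicate 4 at 1545, with the other 3 mice close together. The bulb score of 9.48 in WT-Veh replicate 1, and Eomes at 899 in that mouse and at 240 in HT-Veh replicate 4, stood apart from the rest of their groups. These are the bulb-rich mice of the vehicle groups, and the members' values with and without them are given above.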

How the results depend on the processing

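The 56 results on the members were recomputed under 1232 alternatives in all. Of these, 1213 kept their direction and, where tested, their side of the threshold. Those on the genotype comparisons have no test of the members, and the choice of members favours their direction. The median genotype difference stayed between 0.59 and 0.74 in vehicle mice, between 0.41 and 0.51 in fluoxetine mice and between 0.57 and 0.66 over both treatments with 1 mouse left out. No alternative let a member pass in a fluoxetine comparison or in the interaction. The number of members passing along the bulb score was 0 to 1 with 1 mouse left out, 0 being without WT-Veh replicate 1. With the bulb score as a covariate, fluoxetine in HT turned to -0.016 for Otof and the interaction of Pdyn turned to -0.010. With 1 mouse left out, differences near 0 changed sign: fluoxetine in HT ran from -0.18 to 0.059 for Ccdc3 and from -0.16 to 0.051 for Pdyn, fluoxetine over both genotypes from -0.055 to 0.0105 for Calb1, the interaction from -0.19 to 0.048 for Otof and from -0.014 to 0.29 for Pdyn, and the bulb slope from -0.044 to 0.00011 for Wfs1. The cause was not tested. Counts over all genes were less stable: with 3, 7 and 7 genes passing in the 3 genotype comparisons (vehicle, fluoxetine, both), quality weights gave 18, 14 and 23, the bulb covariate 19, 0 and 7, and leaving out bulb-rich mice 11 in vehicle mice and 4 over both. Fluoxetine in WT went from 0 genes to 12 with quality weights, to 2 with the bulb covariate and to 4 without WT-Veh replicate 1. For the bulb slope, 2295 genes passed, 1433 with Eomes in place of the score and 146 without WT-Veh replicate 1. The replicate block (the replicate number as a term) changed no call on a member, and the Otof slope was -0.10 with it (adjusted p = 0.0364), with 835 genes passing along the score. In vehicle mice no gene passed with the block (3 without it). The labels do not say whether the numbers pair mice. Same-numbered mice of different groups correlated in their deviations by 0.057 on average over 24 pairs, from -0.23 to 0.31. For differently numbered mice the mean was -0.018 over 72 pairs, from -0.46 to 0.36. Over all groups, 7 mice were closest to their own number. Whether these values differ from chance was not tested, so pairing is neither shown nor excluded. Leaving out bulb-rich mice was not possible for HT-Flx against WT-Flx, fluoxetine in WT and the interaction, where 1 WT-Flx mouse would remain. The unknown depth limits what can be said of Tnfrsf8, the least abundant member.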
